A study of Mus musculus with 51 samples.

Results

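The comparison is between the gastrocnemius, a large calf muscle, of 4 mice labelled as Vhl knockouts and that of 6 floxed controls of the same line. These 10 libraries, 1 per animal, were chosen by their labels from the 51 libraries of the series, and every gene of their count table was used. The knockouts carry the label VhlKO and the controls Vhlfx/fx, an allele with lox sites that Cre recombinase can cut. The series' design text calls the Bmal1 knockout of the study specific to skeletal muscle and says nothing of where Vhl was deleted. All 10 mice were fed a high-fat diet, so diet was common to both groups, and all belong to batch 2 of 2. The sources used here do not state the Cre driver, the deleted exons, the ages, the sexes or the time of harvest. Levels are CPM (counts scaled to the size of each library) from sequencing of the 3′ ends of messenger RNAs, differences are log2 fold changes ± standard error, and a gene is said to have risen or fallen where the adjusted p of edgeR's quasi-likelihood test was under 0.05.

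The von Hippel-Lindau protein, which Vhl encodes, is the substrate receptor of an E3 ubiquitin ligase. When oxygen is plentiful, prolyl hydroxylases (the Egln enzymes) mark the alpha subunits of hypoxia-inducible factor (HIF), and the ligase then marks them for destruction. Without the protein, HIF alpha subunits persist at normal oxygen, pair with Arnt and bind short DNA sites with the core RCGTG (R is A or G), which are found near genes of glycolysis, blood vessel growth, matrix synthesis and mitochondrial turnover. In muscle, HIF is best known for moving fuel use from oxidation towards glycolysis.

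The promoters of 5 genes are shown first because these genes rose in all 4 knockouts and stand for different branches of the response. Each is the stretch of 250 bases just before the gene's start in RefSeq's GRCm38.p6 table, read 5′ to 3′ on the gene's strand, and capitals mark ACGTG or GCGTG on either strand (CACGT or CACGC when read on the gene's strand).
Ak4 (chr4:101419039-101419288, plus strand): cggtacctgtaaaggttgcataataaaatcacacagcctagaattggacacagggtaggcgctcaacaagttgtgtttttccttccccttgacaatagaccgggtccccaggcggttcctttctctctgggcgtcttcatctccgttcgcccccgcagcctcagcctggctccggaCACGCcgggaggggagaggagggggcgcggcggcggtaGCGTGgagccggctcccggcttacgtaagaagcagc
Car9 (chr4:43506776-43507025, plus strand): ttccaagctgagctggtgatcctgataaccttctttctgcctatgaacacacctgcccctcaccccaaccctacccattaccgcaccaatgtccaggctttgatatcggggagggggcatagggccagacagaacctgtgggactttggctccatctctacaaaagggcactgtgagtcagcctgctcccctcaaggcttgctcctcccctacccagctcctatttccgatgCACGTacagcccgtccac
Egln3 (chr12:54203875-54204124, minus strand): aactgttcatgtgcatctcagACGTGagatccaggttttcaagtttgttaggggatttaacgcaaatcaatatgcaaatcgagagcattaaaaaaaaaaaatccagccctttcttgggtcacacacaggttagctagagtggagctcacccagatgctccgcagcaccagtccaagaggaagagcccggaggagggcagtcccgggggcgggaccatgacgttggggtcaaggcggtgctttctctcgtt
Bnip3 (chr7:138909507-138909756, minus strand): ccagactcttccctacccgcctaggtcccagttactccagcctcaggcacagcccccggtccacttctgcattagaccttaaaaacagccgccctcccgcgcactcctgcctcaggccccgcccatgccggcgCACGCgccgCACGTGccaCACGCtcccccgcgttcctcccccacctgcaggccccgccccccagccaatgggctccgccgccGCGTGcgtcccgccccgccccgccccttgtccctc
P4ha1 (chr10:59323046-59323295, plus strand): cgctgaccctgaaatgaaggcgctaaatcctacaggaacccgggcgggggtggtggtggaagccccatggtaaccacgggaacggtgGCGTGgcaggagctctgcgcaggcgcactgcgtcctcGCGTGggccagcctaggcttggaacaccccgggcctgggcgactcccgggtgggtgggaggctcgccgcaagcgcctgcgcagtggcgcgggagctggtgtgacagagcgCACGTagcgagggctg
For Ak4 the first of 4 listed starts is shown. The RefSeq starts differ from those of the GENCODE gene models whose positions are given further on: the ends of the Ak4, Car9 and Bnip3 windows lie inside the GENCODE gene, and so does the marked match of Car9. The Ak4 window held 2 matches, at 74 and 36 bases before the start. The Car9 window held 1 match, 18 bases before the start, and the Egln3 window 1 match, 229 bases before it. Bnip3 had 5 matches, of which CACGT and ACGTG overlap in 1 CACGTG, and P4ha1 had 3. These short motifs are common. Of the 9522 tested genes with an entry in the table, 56.8% held at least 1 match in the first listed window, against 54.0% of the genes that rose, 57.0% of those that fell and 48.4% of the 64 matched genes that rose over 4-fold. A match in these windows is a description of the letters and was not tested as a binding site.

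Depth ran from 9046107 to 11123349 counts in the knockouts and from 9510813 to 12118502 in the controls. Correlations of log2 CPM were 0.968 to 0.978 among knockouts, 0.974 to 0.980 among controls and 0.943 to 0.960 between the groups, and no library was a copy of another. The first principal component (42.3% of the variance) separated the groups. Knockout 2 lay apart from the other knockouts on the second (10.3%). Transcripts of the mitochondrial genome took 32.2% ± 3.51 of counts in the knockouts (SD, n = 4) and 37.1% ± 2.30 in the controls (SD, n = 6). None of 4 sex-linked transcripts tested passed, and Xist was at 0 in all 10 libraries. These are whole muscles, so a change of a cell type's share and a change of RNA per cell cannot be told apart.

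Vhl itself (chromosome 6, 113623959 to 113631633, plus strand, GRCm38, GENCODE M21) was counted at 0.796, 2.69, 1.80 and 1.46 CPM in knockouts 1 to 4. In the controls it ran from 1.69 to 5.09 CPM with a median of 2.70. The ranges overlapped. The difference was -0.85 ± 0.30 (adjusted p = 0.0217), and the call was lost when control 1, control 6, knockout 1 or knockout 4 was left out. It was also lost without scaling factors (with or without mitochondrial transcripts), with the replicate number as a block, in a fit of these groups alone, at a threshold of 0.01 and with knockouts 1 and 4 both left out. A 3′ tag lies at the end of the transcript and does not check a deletion elsewhere in the gene, whose position is not given, so these counts do not test the labels. Low depth at this gene limits the estimate. Arntl, the gene of the clock protein BMAL1 that is intact in this line, did not pass (-0.27 ± 0.13, adjusted p = 0.0966). It was at 15.4, 10.3, 11.7 and 11.7 CPM in knockouts 1 to 4 against 13.1 to 17.0 CPM in the controls. Under 2 of 23 alternatives it passed as a fall, and without scaling factors it turned to 0.073.

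Across the transcriptome the differences were large. Of 13093 genes tested, 4876 passed (37.2%): 2320 rose (17.7%) and 2556 fell (19.5%), and 644 of the former and 305 of the latter changed over 2-fold. The 100 genes that rose over 4-fold outnumbered the 28 that fell as far. The levels of both groups did not overlap for 1317 genes that were higher (10.1%) and 1611 that were lower (12.3%). The split of calls rests on the scaling of libraries by TMM: without scaling factors the median gene moved from 0.01 to 0.35 and 5815 genes rose against 684 that fell. With mitochondrial transcripts also left out, the median was 0.24, with 4592 genes higher and 1122 lower. Directions of modest size are therefore relative to the average gene, and where the median of a list described here turned without scaling factors, that value is given.

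**Figure D1:**
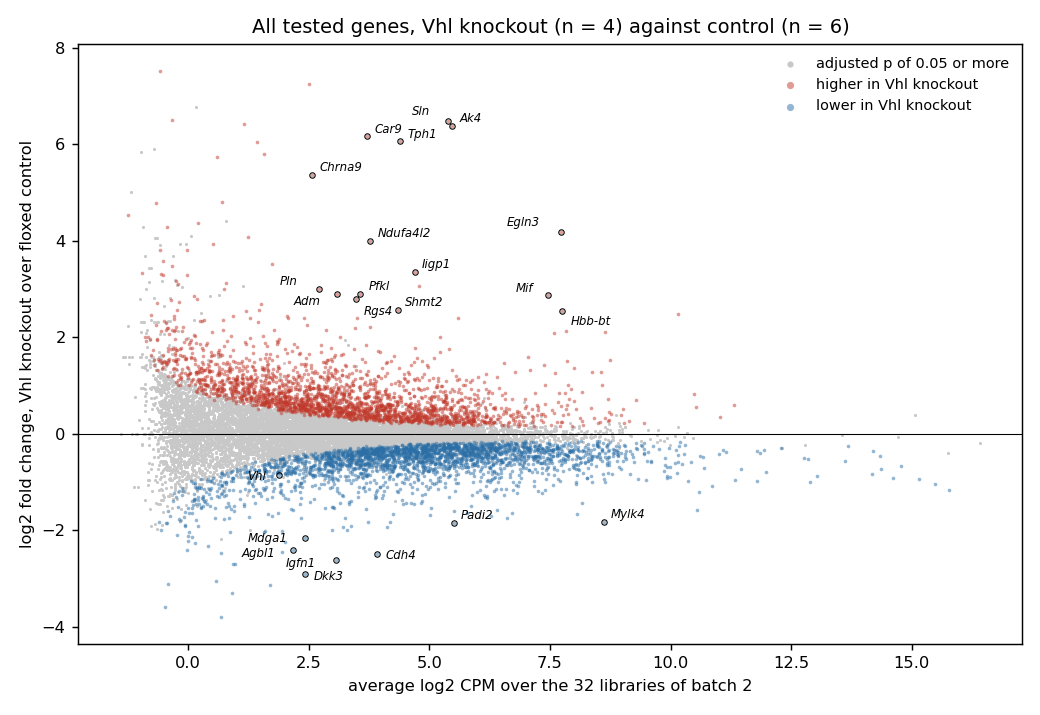
All 13093 tested genes, with the average log2 CPM over the 32 libraries of batch 2 on the horizontal axis and the log2 fold change of Vhl knockout (n = 4) over control (n = 6) on the vertical axis. Red points rose and blue points fell at an adjusted p under 0.05, and the circled, labelled genes include the 15 with the largest rise under the rule for named genes; Vhl lies near -0.85, while Sln, Ak4, Car9 and Tph1 lie above 6.

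The oxygen sensing genes moved apart. Egln3 (chromosome 12, 54178981 to 54203860, minus strand), which encodes the HIF prolyl hydroxylase PHD3 and is itself a HIF target, was at 785, 712, 745 and 740 CPM in the knockouts and at 35.2 to 49.7 CPM (median 40.1) in the controls. The knockouts exceeded every control by far, and the rise was 18.3-fold (4.19 ± 0.13, adjusted p = 6.35e-21). Egln1, the main HIF prolyl hydroxylase PHD2, was at 513, 463, 461 and 461 CPM against 161 to 198 CPM (median 187), a 2.59-fold rise. Epas1, which encodes HIF-2 alpha, was at 77.7, 66.4, 74.7 and 79.4 CPM against 51.0 to 57.2 CPM (median 52.6), and rose by 0.48 ± 0.08 on the log2 scale. Hif1a, at 7.47 to 11.7 CPM in the knockouts and 9.82 to 11.5 CPM in the controls, did not pass (-0.15 ± 0.12, or 0.18 without scaling factors, adjusted p = 0.349 and 0.236), and neither did its partner Arnt (0.07 ± 0.11). Cul2, the scaffold of the VHL ligase, fell by 0.62 ± 0.10 on the log2 scale. Of 16 tested genes of HIF subunits and oxygen sensing, 3 rose and 7 fell, where 17.7% of all genes rose and 19.5% fell, with a median of -0.15 that became 0.19 without scaling factors.

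HIF targets that act in mitochondria held some of the largest rises. Ak4 (chromosome 4, 101419277 to 101466995, plus strand), an adenylate kinase of the mitochondrial matrix, was at 184, 172, 169 and 170 CPM in the knockouts and at 1.33 to 2.602 CPM (median 2.14) in the controls. That is an 84-fold rise (6.39 ± 0.13, adjusted p = 3.02e-36) with 4 nearly equal knockouts. Ndufa4l2, a relative of a cytochrome oxidase subunit that lowers respiration under hypoxia, was at 48.3, 44.3, 55.1 and 50.0 CPM against 2.17 to 3.78 CPM (median 3.12), a 16.01-fold rise. Bnip3, a receptor that marks mitochondria for autophagy, was at 484, 391, 435 and 477 CPM against 146 to 178 CPM (median 153), a 2.85-fold rise. Its relative Bnip3l rose 2.24-fold. Pdk1, a kinase that shuts the pyruvate dehydrogenase complex, was at 78.7, 66.1, 68.3 and 74.7 CPM against 19.2 to 24.2 CPM (median 22.7), a 3.25-fold rise. Of the 11 genes of this list 7 rose and none fell, with a median of 1.16 against 0.01 over all genes.

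Targets of signalling and vessel growth rose as a group, with 15 higher and 1 lower of 21 tested (median 0.97). Car9 (chromosome 4, 43506966 to 43513729, plus strand), a carbonic anhydrase of the cell surface that is widely used as a hypoxia marker, was at 56.3, 54.4, 47.9 and 56.3 CPM against 0.473 to 1.26 CPM (median 0.641). The groups lay 71.9-fold apart (6.17 ± 0.17, adjusted p = 1.25e-32). Adm, which encodes the vasodilator adrenomedullin, was at 17.9, 25.6, 17.4 and 19.9 CPM against 1.26 to 3.68 CPM (median 2.81), a 7.41-fold rise. Vegfa, the main growth factor of blood vessels, was at 279, 245, 284 and 282 CPM against 86.1 to 120 CPM (median 112), a 2.51-fold rise, and its receptor gene Flt1 rose 2.12-fold. Vegfa and Bnip3l lie outside the rule for named genes and were picked after their values had been seen. The 1 member that fell was Bhlhe41, a transcriptional repressor tied to the clock, at 21.8, 21.8, 17.6 and 20.0 CPM against 46.4 to 53.1 CPM (-1.32 ± 0.09, adjusted p = 9.43e-17), while its relative Bhlhe40 rose by 0.59 on the log2 scale.

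Among targets of chromatin, matrix and protein folding, 9 of 13 rose and none fell (median 0.62). P4ha1 (chromosome 10, 59323296 to 59373304, plus strand), the catalytic subunit of collagen prolyl 4-hydroxylase, was at 133, 124, 122 and 112 CPM against 20.7 to 26.1 CPM (median 23.2), a 5.26-fold rise. Loxl2, which cross-links collagen, rose 2.59-fold, Ero1l, the oxidase that forms disulfides in the endoplasmic reticulum, 2.87-fold, and Plod2, a collagen lysyl hydroxylase, 2.29-fold. Mif, a cytokine gene that lies outside these lists, was at 624, 494, 558 and 562 CPM against 67.3 to 82.1 CPM (median 77.4), a 7.32-fold rise (2.87 ± 0.07, adjusted p = 7.44e-34). Mif and several glycolytic genes have near-identical processed copies in the mouse genome, and the sources used here do not say how reads shared between copies were counted.

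**Figure D2:**
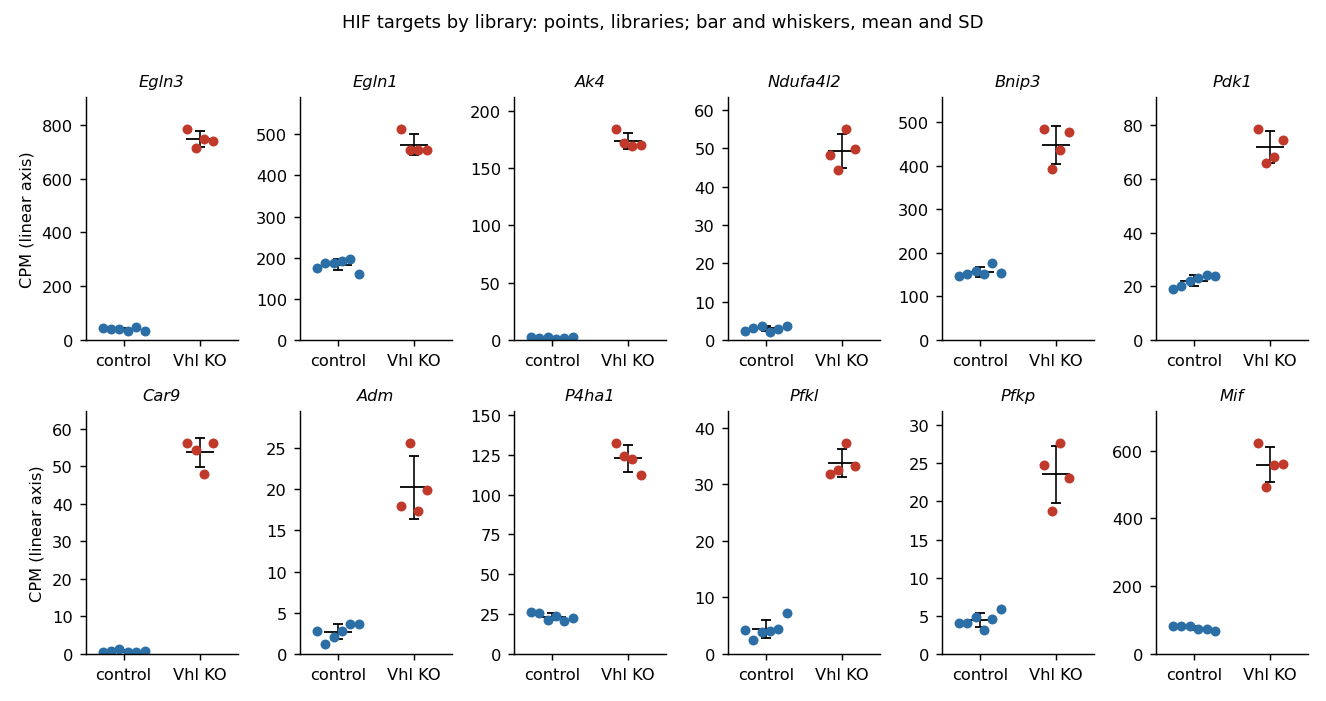
CPM of 12 genes in each of the 6 control libraries (blue) and the 4 Vhl knockout libraries (red), on linear axes that start at 0, with the mean (bar) and SD (whiskers) of each group. In every panel the lowest knockout lies above the highest control, for example 712 against 49.7 CPM for Egln3 and 47.9 against 1.26 CPM for Car9.

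Glycolysis genes moved in opposite directions by isozyme. Genes of the forms used outside muscle rose from low levels. Pfkl, the liver form of phosphofructokinase, was at 31.7, 32.5, 37.4 and 33.3 CPM against 2.53 to 7.30 CPM (median 4.18), a 7.48-fold rise, and Pfkp, the platelet form, was at 24.8, 18.7, 27.7 and 23.0 CPM against 3.13 to 5.86 CPM (median 4.37), a 5.25-fold rise. Pfkm, the muscle form, had 1148 ± 72.6 CPM in the knockouts and 1289 ± 117 CPM in the controls (SD), overlapped, and fell by only 0.17 ± 0.07 on the log2 scale, a call lost under most alternatives and a direction that turned to 0.19 without scaling factors. The same pattern held for other steps. Aldoc and Eno1, the brain and the ubiquitous forms of aldolase and enolase, rose by 3.58 ± 0.59 and 0.92 ± 0.24, while the muscle forms Aldoa and Eno3 fell by 0.51 ± 0.06 and 0.95 ± 0.07, the Aldoa call being lost without scaling factors. Aldoc stayed at 0.539 to 2.09 CPM in the knockouts, so its fold rests on few counts. Eno3 was at 1576, 2011, 1525 and 1629 CPM against 3034 to 3481 CPM (median 3251), with no overlap. Pgam1, the ubiquitous phosphoglycerate mutase, rose by 1.21 ± 0.33, and the muscle form Pgam2 fell by 0.86 ± 0.13. Pgam1 was low in both groups, at 1.67 to 2.69 CPM in the knockouts and 0.632 to 1.305 CPM in the controls.

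The other steps went both ways. Pkm, the pyruvate kinase gene, was at 2118, 2160, 1981 and 2056 CPM against 1082 to 1251 CPM (median 1181), a 1.78-fold rise. Gpi1 rose by 0.55 ± 0.06, Tpi1 by 0.70 ± 0.07 and Ldha, the lactate dehydrogenase form that favours lactate, by 0.55 ± 0.07, and Ldhb, the form of oxidative tissue, fell by 0.64 ± 0.20, a call that ended without knockout 2 or knockout 3. Pgk1 (0.60 ± 0.30, adjusted p = 0.12) and Gapdh (-0.19 ± 0.21, adjusted p = 0.513, and 0.17 without scaling factors) did not pass. The hexokinase genes parted, with Hk1 up by 0.70 ± 0.17 and Hk2, the insulin-regulated muscle form, down by 0.49 ± 0.17, a call lost without any 1 of control 1, control 5, knockout 2, knockout 3 or knockout 4. Both lactate transporters rose, Slc16a1 by 0.80 ± 0.09 and Slc16a3 by 0.49 ± 0.08. Over the HIF target list of glucose uptake and glycolysis 12 of 19 rose and 2 fell (median 0.60), and over the muscle glycolysis isozymes, which share members with it, 6 of 17 rose and 9 fell (median -0.19, but 0.17 without scaling factors).

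Among genes of glucose entry, 1 transporter rose and 1 fell. Slc2a1, the ubiquitous glucose transporter GLUT1, rose 2.22-fold from 6.74 ± 1.54 CPM in the controls to 15.1 ± 2.52 CPM (SD). Slc2a4, the insulin-responsive transporter GLUT4 (chromosome 11, 69942539 to 69948188, minus strand), was at 110, 125, 107 and 109 CPM against 159 to 180 CPM (median 172), and was 1.51-fold lower without overlap (adjusted p = 9.49e-10). Slc2a3, the transporter GLUT3 of neurons, was at 3.18, 3.39, 3.69 and 2.82 CPM against 3.65 to 5.80 CPM, overlapped and did not pass (-0.47 ± 0.25, adjusted p = 0.136). Tbc1d4, whose protein AS160 holds GLUT4 vesicles inside the cell until insulin signals, was at 13.5, 13.1, 14.4 and 14.6 CPM against 26.5 to 33.1 CPM (median 29.2), 2.11-fold lower, and its relative Tbc1d1 was 2.02-fold lower. Over 24 genes of insulin signalling and GLUT4 traffic 6 rose and 5 fell, against shares over all genes of 17.7% and 19.5%, with a median of -0.03 (0.32 without scaling factors).

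Glycogen genes shifted at their regulators. Phka1, the muscle regulatory subunit of phosphorylase kinase, was at 115, 170, 110 and 113 CPM against 322 to 371 CPM (median 336), 2.71-fold lower, and its catalytic partner Phkg1 was 1.72-fold lower. Ppp1r3a, the muscle subunit that brings protein phosphatase 1 to glycogen, was 2.24-fold lower. Ppp1r3b, the subunit best known from liver, was at 2.49, 4.31, 3.69 and 3.56 CPM against 0.211 to 0.831 CPM (median 0.475), a 6.97-fold rise at low levels. Of 20 tested glycogen genes 4 rose and 8 fell, against shares over all genes of 17.7% and 19.5%. Their median was -0.15 (0.19 without scaling factors).

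Oxidative genes fell widely. Of 34 genes of pyruvate entry and the TCA cycle, 29 fell and 2 rose, with a median of -0.62. The 2 that rose are kinases that block pyruvate dehydrogenase, Pdk1 and Pdk3 (2.35 ± 0.31, named after its value had been seen), while Dlat, the E2 core of that complex, was 1.78-fold lower and Idh3b, a subunit of isocitrate dehydrogenase, 1.98-fold lower. Sdhb, the iron-sulfur subunit of succinate dehydrogenase, was at 302, 321, 299 and 362 CPM against 515 to 549 CPM (median 532), 1.66-fold lower without overlap (adjusted p = 1.96e-13). In the respiratory chain and ATP synthase 61 of 76 fell and 1 rose (median -0.36). Uqcrc2 of complex III was 1.77-fold lower and Cox6a2, the muscle form of a complex IV subunit, 2.11-fold lower, and the 1 gene that rose was Cox8b (0.24 ± 0.07), a call lost without knockouts 1 and 4. The counts of this list depended on scaling: without factors 17 fell and 13 rose with a median of -0.02. Over all 13093 genes that setting had 684 lower and 5815 higher, with a median of 0.35. With mitochondrial transcripts also left out 31 fell and 9 rose (median -0.12, against 0.24 over all genes). For the TCA list the same 2 settings gave 20 and 24 genes that fell.

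Mitochondrial genome messages fell with them. Of 8 tested, 5 fell and none rose (median -0.52, or -0.18 with 3 lower without scaling factors), and mt-Cytb, the cytochrome b message, went from 66000 ± 8201 CPM to 32060 ± 3351 CPM (SD), 2.06-fold lower. Tfam, which packs and transcribes mitochondrial DNA, fell by 0.59 ± 0.09 and Polrmt, its RNA polymerase, by 0.63 ± 0.13, the latter call lost without scaling factors. Among 17 regulators of mitochondrial biogenesis 6 fell and 1 rose, where 19.5% of all genes fell and 17.7% rose. Their median was -0.22, or 0.12 without scaling factors. The 1 that rose lost its call without control 3, 5 or 6 or without knockout 1, 2 or 4.

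Genes for the breakdown of fat and of branched-chain amino acids fell at many steps. Acadm, the medium-chain acyl-CoA dehydrogenase, was at 194, 144, 153 and 198 CPM against 246 to 301 CPM (median 286), 1.63-fold lower without overlap. Hadh and Etfdh, of the last steps of beta oxidation and of its electron transfer, were 1.73-fold and 1.74-fold lower. Of 32 tested genes of fatty acid uptake and oxidation 20 fell and 4 rose (median -0.44). Without scaling factors 7 fell and 9 rose (median -0.10), while 684 of 13093 genes fell, 5815 rose and the median gene was at 0.35. The 4 that rose, named after their values had been seen, were Plin2, a lipid droplet coat, Cpt1a, the liver form of the carnitine palmitoyltransferase of the outer membrane, Mlycd, which removes malonyl-CoA, and Cd36, a fatty acid transporter. Of these Cpt1a lost its call without knockout 3, Mlycd without knockout 1 and Cd36 without knockout 1 or knockout 4.

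For branched-chain amino acids 20 of 22 genes fell and none rose (median -0.65, or -0.30 with 14 lower without scaling factors). Dbt, the E2 subunit of the branched-chain ketoacid dehydrogenase that commits these amino acids to oxidation, was at 4.38, 6.39, 3.69 and 4.08 CPM against 14.9 to 19.3 CPM (median 16.2), 3.55-fold lower (adjusted p = 3.2e-14). Bckdhb, of the E1 subunit of the same complex, was 2.73-fold lower, and Mut, the mutase at the end of valine and isoleucine breakdown, 1.81-fold lower. For 20 genes of the list the knockouts lay below every control, as they did for 12.3% of all genes.

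**Figure D3:**
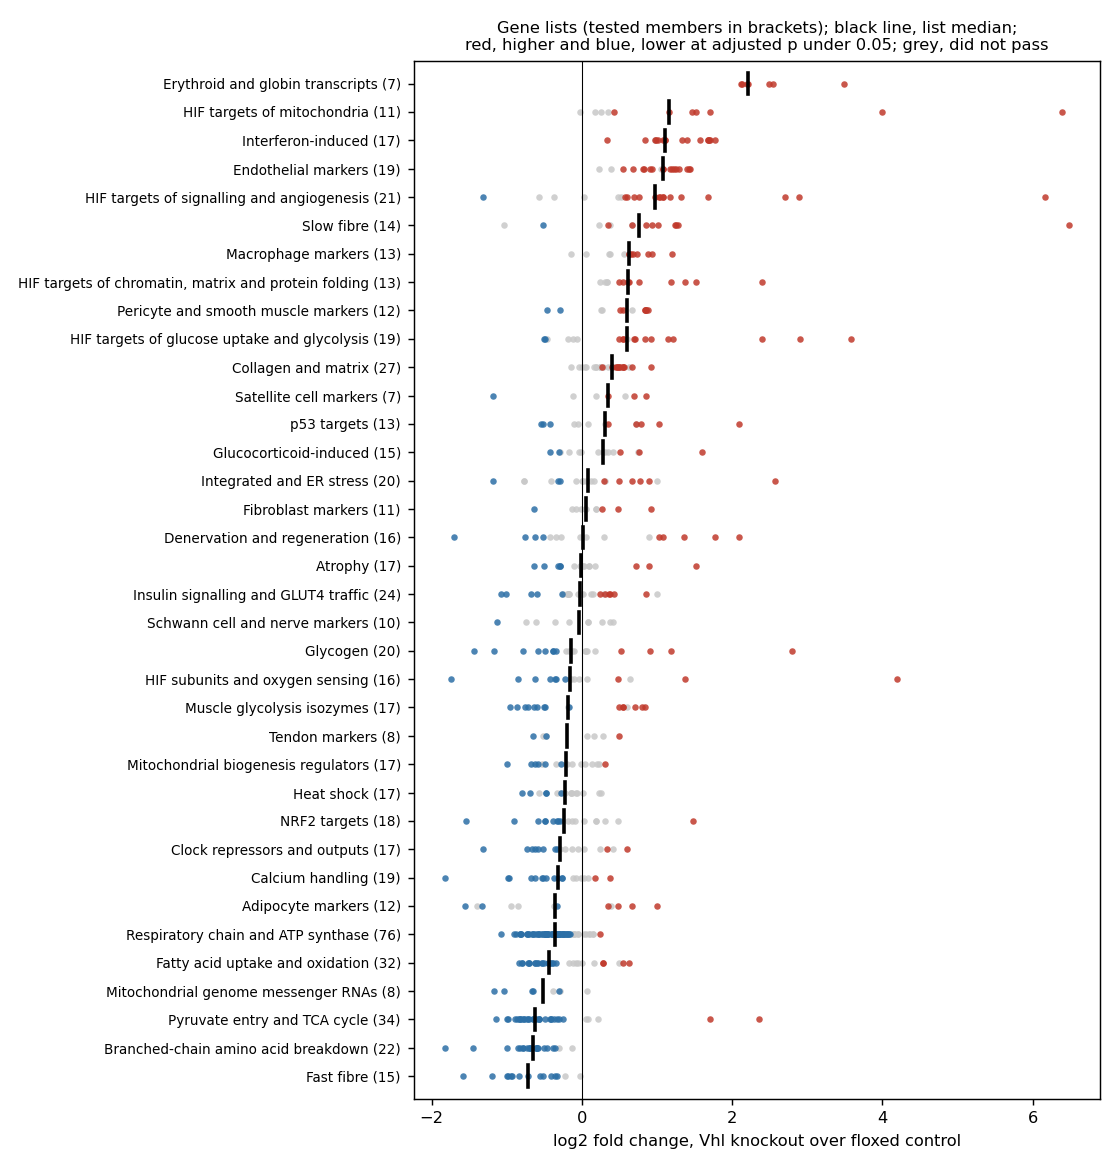
Log2 fold changes of the tested members of the gene lists with at least 7 of them (keratinocyte and sex-linked markers aside), 1 row per list with the number of members in brackets, ordered by the list median (black line). Red and blue points passed at an adjusted p under 0.05 and grey points did not; erythroid transcripts (median 2.21) and HIF targets of mitochondria (1.16) lie at the top, and branched-chain amino acid breakdown (-0.65) and fast fibre genes (-0.72) at the bottom.

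Fibre type genes gave a clear result for fast fibres and an uneven one for slow fibres. Of 15 fast fibre genes 13 fell and none rose (median -0.72, or -0.37 with 8 lower and 1 higher without scaling factors). Myh4, the heavy chain of the fastest (2B) fibres, was at 19240, 23480, 18910 and 19400 CPM against 33340 to 42990 CPM (median 39070), 1.92-fold lower without overlap. Myh1 and Myh2, the heavy chains of 2X and 2A fibres, named after their values had been seen, were 2.29-fold and 3.00-fold lower. Myl1 (1.99-fold) and the troponin gene Tnnt3 (1.79-fold) were lower as well.

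Of 14 slow fibre genes 9 rose and 1 fell (median 0.76). The rise rested on knockouts 1 and 4. Tpm3, slow tropomyosin, was at 614, 97.8, 182 and 548 CPM against 123 to 173 CPM (median 159), so knockout 2 lay below every control. Myl3, the slow myosin light chain, was at 1065, 209, 428 and 983 CPM against 225 to 418 CPM (median 345). Tnnc1, Tnni1 and Myh7, named after their values had been seen, were likewise high in knockouts 1 and 4, with Myh7 at 285, 34.3, 62.6 and 233 CPM against 71.7 to 127 CPM. Without knockout 1 or without knockout 4 the number that rose was 4, without knockout 2 it was 12, and with knockouts 1 and 4 both left out, a setting chosen after the data had been seen, 1 rose and 4 fell (median -0.43), and Tpm3 (-0.10), Myl3 (-0.06), Tnnc1 (-0.22), Tnni1 (-0.48) and Myh7 (-0.99) turned in direction. How much slow muscle each dissection held was not measured.

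Sarcolipin stood outside that pattern. Sln (chromosome 9, 53850164 to 53854560, plus strand), whose small protein makes the calcium pump SERCA burn ATP without moving calcium, was at 292, 209, 190 and 168 CPM in the knockouts and 1.33 to 3.92 CPM (median 2.01) in the controls. It had the largest rise among the named genes, 89.8-fold (6.49 ± 0.32, adjusted p = 2.67e-15), and knockout 2, low in the other slow fibre genes shown, had 209 CPM against 168 CPM in knockout 4. Pln, which encodes the SERCA inhibitor phospholamban of heart and slow muscle, was at 14.1, 8.01, 11.9 and 12.6 CPM against 0.764 to 2.14 CPM (median 1.42), an 8.06-fold rise. Ryr1, the calcium release channel, was 1.97-fold lower. Of 19 calcium handling genes 12 fell and 2 rose (median -0.32, or 0.03 without scaling factors), the 2 being Stim1, the store sensor (0.37), and Cacng1 (0.17), named after their values had been seen; the Stim1 call was lost without knockouts 1 and 4 and the Cacng1 call without control 1, control 6, knockout 2 or knockout 3.

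**Figure D4:**
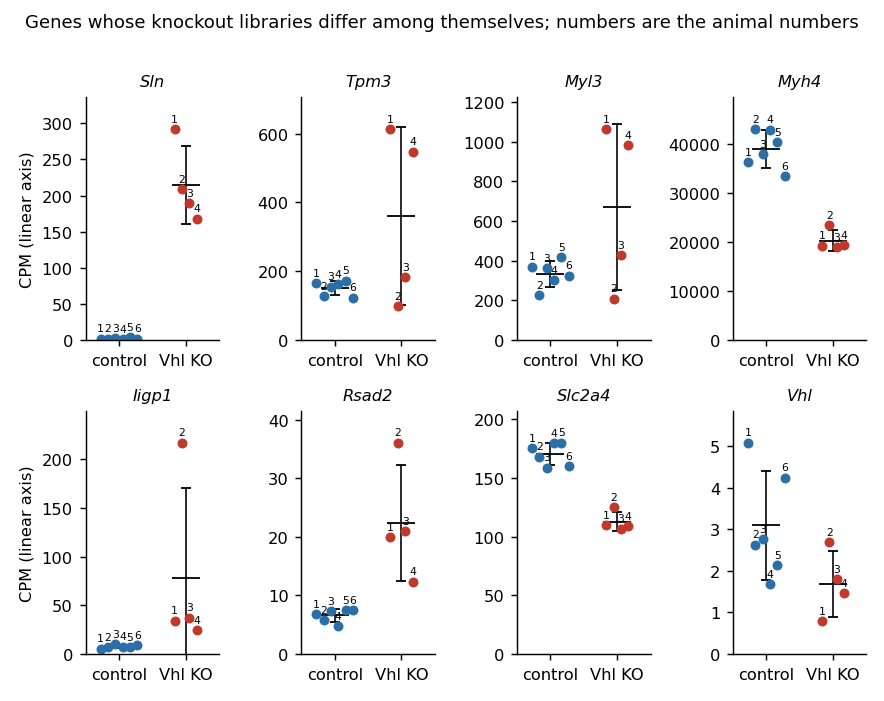
CPM of 8 genes in the 6 control (blue) and 4 Vhl knockout (red) libraries on linear axes that start at 0, with animal numbers beside the points and the mean and SD of each group. Tpm3 and Myl3 are highest in knockouts 1 and 4, with knockout 3 just above the highest control and knockout 2 below the lowest, Iigp1 is high in knockout 2 (217 CPM), while Sln is high in all 4 knockouts and Myh4 and Slc2a4 are lower in all 4.

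Other large rises fell on genes of varied function. Tph1, the first enzyme of serotonin synthesis outside the brain, was at 70.7, 72.4, 59.1 and 51.8 CPM against 0.737 to 1.66 CPM (median 0.804), a 66.9-fold rise. Chrna9, an acetylcholine receptor subunit known from hair cells, was at 6.07, 5.00, 5.86 and 12.6 CPM and at 0 to 0.356 CPM in the controls. Rgs4, which shortens G protein signals, was at 33.6, 38.3, 40.5 and 29.7 CPM against 4.46 to 5.86 CPM (median 4.98), a 6.99-fold rise. Shmt2, the mitochondrial serine hydroxymethyltransferase, was at 57.8, 49.0, 56.9 and 53.02 CPM against 6.27 to 10.8 CPM (median 9.97), a 5.93-fold rise, and Mthfd2, its neighbour in one-carbon metabolism, rose by 0.78 ± 0.18, a call lost without knockouts 1 and 4. Xbp1, a transcription factor of the unfolded protein response, rose by 0.49 ± 0.09 and the chaperone Pdia4 by 0.90 ± 0.15. Of 20 genes of the integrated and endoplasmic reticulum stress responses 6 rose and 3 fell (median 0.08). The shares over all genes were 17.7% and 19.5%.

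Among genes that fell, Dkk3 (chromosome 7, 112116017 to 112159057, minus strand), a secreted protein of the dickkopf family, had the largest fall among the named genes. It was at 0.696, 0.539, 1.32 and 0.941 CPM against 4.93 to 8.28 CPM (median 6.56), 7.52-fold lower (adjusted p = 1.34e-11). Igfn1, a protein of the sarcomere's Z-disc, was at 2.88, 1.08, 1.99 and 0.732 CPM against 5.93 to 14.7 CPM (median 10.1). Cdh4, a cadherin, was 5.62-fold lower and Padi2, which turns arginine into citrulline, 3.58-fold lower. Mylk4, a myosin light chain kinase family member (chromosome 13, 32700834 to 32783954, minus strand), was at 138, 209, 150 and 121 CPM against 473 to 632 CPM (median 545), 3.54-fold lower without overlap. The other named genes of the 15 with the largest fall were Agbl1, Mdga1, Fam57b, Cmss1, Adhfe1, Gdap1, Ces1d, BC048679, Dbt and Carnmt1, and they fell by 1.75 to 2.41 on the log2 scale.

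Blood and vessel transcripts rose together. All 7 tested erythroid and globin genes rose, with a median of 2.21 against 0.01 over all genes. Their summed level was 5829 to 7037 CPM in the knockouts and 878 to 1550 CPM in the controls. Hbb-bs, an adult beta globin, was at 3786, 3495, 4243 and 3364 CPM against 493 to 880 CPM (median 680.0), a 5.60-fold rise, though reads of the near-identical globin copies may be split among them. Alas2, the heme synthesis enzyme of red cell precursors, was at 24.5, 34.0, 29.2 and 26.9 CPM against 3.68 to 7.98 CPM (median 6.43). Slc4a1, the anion exchanger of red cells, named after its value had been seen, rose 4.63-fold from at most 1.36 CPM. The share of blood in the muscles was not measured, and its part in these rises was not tested.

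Of 19 endothelial markers 16 rose and none fell (median 1.08), and 14 were higher without overlap, as were 10.1% of all genes. Pecam1, an adhesion protein of endothelial junctions, was at 89.3, 69.6, 109 and 84.0 CPM against 35.1 to 40.9 CPM (median 38.4), a 2.30-fold rise (adjusted p = 5.74e-15). Aqp1, a water channel of capillaries, rose 2.67-fold. Their summed level was 1459 to 1516 CPM in the knockouts and 688 to 781 CPM in controls 1 to 5, with control 6 at 1138 CPM, and without control 6 the number that rose was 17. Markers of pericytes and smooth muscle rose in 7 of 12 and fell in 2 (median 0.60), with Rgs5 up 1.81-fold and Pdgfrb, the growth factor receptor of pericytes, 1.83-fold. The sum over these 12 markers was lower, with means of 1964 CPM in the knockouts and 2263 CPM in the controls. Its ranges overlapped. The 12 include Des, the gene of desmin, which muscle fibres also make, so the sum is not particular to these cells. For collagens and matrix, 12 of 27 rose and none fell (median 0.39), and Lum, lumican, rose 1.90-fold. Of the 27, 4 were higher without overlap, as were 10.1% of all genes. The summed levels overlapped, at 1996 to 2672 CPM in the knockouts and 1471 to 2568 CPM in the controls. Col3a1 lost its call without control 2, 4 or 5 or knockout 1, 3 or 4, and Dcn without control 5 or knockout 3. Col4a1, Col6a2 and Col6a3 kept theirs under every alternative.

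Interferon-induced genes rose in 16 of 17, with a median of 1.11, but knockout 2 carried much of it. Their summed level was 1189 CPM in knockout 2, 594 to 683 CPM in the other 3 knockouts and 307 to 526 CPM in the controls. Without knockout 2 the number that rose was 8 and the median 0.80. Rsad2, an antiviral enzyme, was at 20.0, 36.1, 21.0 and 12.3 CPM against 4.70 to 7.48 CPM (median 7.08), and every knockout lay above every control. Iigp1, an interferon-induced GTPase, was at 34.3, 217, 37.4 and 24.2 CPM against 5.44 to 9.96 CPM (median 7.42), and its call (3.36 ± 0.88, adjusted p = 0.00333) was lost without knockout 2. Macrophage markers behaved likewise, with 8 of 13 higher and a median of 0.62, but 2 higher and a median of 0.45 without knockout 2 (5 higher without control 2 or without control 3, and 11 without control 6 or without knockout 1). The calls of C1qa and Lyz2 were lost without knockout 2.

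Other cell types were checked with their markers. Neutrophil genes passed the count filter in 2 of 8 cases and neither passed the test, and their summed level was 55.5 CPM in control 6 against 1.13 to 4.98 CPM in the other controls and 3.38 to 7.24 CPM in the knockouts. Keratinocyte markers were near the limit of detection, with 26.1 CPM in knockout 1 and 8.51 to 9.93 CPM in the other knockouts, and none of 9 passed. Adipocyte markers went both ways, 4 higher and 3 lower of 12 (median -0.35), where 17.7% of all genes rose and 19.5% fell. Their list shares Car3, which rose by 0.34 ± 0.13, with the slow fibre genes and Fabp4 with the endothelial markers. The adipocyte calls were unstable. The number higher was 2 without control 1 or knockout 4. The number lower was 1 without control 1, 4 or 6 or without knockout 2 or 3. Without control 5 it was 6, and without knockout 4 it was 5. Plin1, the droplet coat of fat cells, was at 1.59 to 9.52 CPM against 6.29 to 41.9 CPM, with control 6 the highest. The satellite cell gene Pax7 fell by 1.18 ± 0.30 at low levels, with 0.662 to 1.57 CPM in the knockouts against 1.93 to 2.72 CPM. Vcam1 rose by 0.86 ± 0.25, at 3.35 to 5.85 CPM against 1.54 to 3.48 CPM, and its ranges overlapped. The satellite cell list had 3 higher and 1 lower of 7 (1 higher without knockout 1), against shares over all genes of 17.7% and 19.5%. The part of these cells in the results was not tested.

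Genes known from denervated or regenerating muscle went both ways, in a list that was not sorted by expected direction. Chrna1, an acetylcholine receptor subunit of the synapse, rose 3.43-fold, Runx1, a transcription factor induced by denervation, 2.56-fold, and Cdkn1a, the cell cycle inhibitor p21, was at 186, 103, 190 and 244 CPM against 25.2 to 55.1 CPM (median 42.9), a 4.24-fold rise. Hdac4, a histone deacetylase that takes part in the response to denervation, fell by 0.62 ± 0.11. Musk (1.08 ± 0.20) and Myog (1.03 ± 0.31), named after their values had been seen, also rose. Mybph (-1.70), Dach2 (-0.76) and Chrne (-0.52) also fell, the last 2 named likewise. The list had 5 higher and 4 lower of 16, where 17.7% of all genes rose and 19.5% fell. Of 13 p53 targets, which include Cdkn1a, 5 rose and 3 fell, against the same shares over all genes. Those that fell were Ccng1, Phlda3 and Sesn1, whose calls were lost without scaling factors. Atrophy genes had 3 higher and 5 lower of 17 (median -0.01), against shares over all genes of 17.7% and 19.5%. Without scaling factors 10 were higher and 1 lower (median 0.33), where 5815 of all 13093 genes rose, 684 fell and the median was 0.35. For heat shock genes the counts were none higher and 5 lower of 17 (median -0.22, or 0.12 without scaling factors), and for NRF2 targets 1 higher and 9 lower of 18 (median -0.24, or 0.11). Glucocorticoid-induced genes had 3 higher and 2 lower of 15, against the same shares over all genes, with Mt1, a metallothionein, up 3.02-fold. In that list 5 were higher without control 6 and 1 without knockout 1, and 1 was lower without control 2, 4 or 5 or knockout 2, and none without knockout 3.

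The core clock activators Npas2 (0.75, adjusted p = 0.14), Clock (0.12, adjusted p = 0.232) and Arntl2 (adjusted p = 0.367) did not pass by edgeR's test, nor did Arntl, and without knockout 1 the number of these 4 that fell was 1. Without scaling factors 2 of the 4 rose and their median turned from -0.07 to 0.27. In that setting 5815 of all 13093 genes rose and the median over all genes was 0.35. Of 17 clock repressors and outputs 2 rose and 8 fell, where 17.7% of all genes rose and 19.5% fell. Their median was -0.29, or 0.06 without scaling factors. Nr1d1, which encodes the repressor REV-ERB alpha, fell by 0.62 ± 0.09, Tef by 0.52 ± 0.08 and Dbp by 0.67 ± 0.16, the last 2 calls lost without scaling factors. Bhlhe40 and Cry2 were the 2 that rose, and the Cry2 call was lost without control 4 or knockout 1. With 1 time of harvest per animal, and that time not given, a change of level and a change of phase cannot be told apart.

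The Vhl effect was then set beside those of the other 2 lines of batch 2, which share no library with it. The double knockout is labelled as lacking both Bmal1 and Vhl (4 mice, 6 floxed controls of its line), and the Bmal1 knockout as lacking Bmal1 alone (4 mice, 8 floxed controls), all on high-fat diet. In the double knockout 35.4% of all genes passed (17.4% rose and 18.1% fell), and in the Bmal1 knockout 13.9% passed (6.94% rose and 6.96% fell). Of the genes that rose without Vhl 53.1% also rose in the double knockout (1233 genes, 54.3% of its own), and of those that fell 56.3% also fell (1438 genes, 60.8% of its own), against 34 and 55 with the opposite call. For the Bmal1 knockout the same shares were 11.4% (29.0% of its own) and 18.4% (51.6% of its own), against 87 and 216 with the opposite call. Across all 13093 genes the log2 fold changes of the Vhl line correlated with r = 0.67 with those of the double knockout and r = 0.22 with those of the Bmal1 knockout, as a description over genes, which are not independent.

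The difference between the Vhl effect and the double knockout effect was tested gene by gene and passed for 1121 genes (8.56%), with the higher value in the Vhl line for 531 (4.06%) and the lower for 590 (4.51%). Of the HIF targets of mitochondria none of 11 differed, and of those of glucose uptake and glycolysis 3 of 19 were higher and 2 lower in the Vhl line. Ak4 (6.39 and 6.31), Car9 (6.17 and 6.04), Egln3 (4.19 and 4.07) and Ndufa4l2 (4.00 and 3.96) differed by 0.04 to 0.13 between the lines, none passing. Of the genes under the rule for naming, which asks for a minimum level, Mylk4 differed most, at -1.82 ± 0.10 in the Vhl line and -7.47 in the double knockout, a difference of 5.65 (adjusted p = 2.84e-25). Dbp (difference 2.15), Snai3, a repressor of the snail family (1.91), and Tcap, telethonin of the Z-disc (1.79), likewise fell in the Vhl line and fell further in the double knockout. Sln rose in both and more in the Vhl line (6.49 against 4.38, difference 2.10).

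In the other direction, Cdkn1a rose less without Vhl than without both genes (2.09 against 4.26, difference -2.18, adjusted p = 6.83e-05), as did Dupd1, a dual-specificity phosphatase (0.85 against 2.92). Ttll7, a tubulin polyglutamylase, fell by 0.58 ± 0.08 in the Vhl line and was higher by 1.47 in the double knockout, and Ighm, the immunoglobulin heavy chain of B cells, was at -0.77 against 1.33, its call in the Vhl line lost under many alternatives. Atp8a2, a phospholipid flippase, did not pass in the Vhl line (0.49) and stood at 2.44 in the double knockout. The number of genes that differed ranged from 763 without knockout 3 to 1628 without knockout 2. In the oxidative lists the Vhl line was the lower one: of 76 genes of the respiratory chain 27 had a lower value in the Vhl line and none a higher one, of 34 TCA genes 14 against 1, and of 32 fatty acid genes 11 against 1. Acadm, for instance, fell by 0.70 ± 0.07 in the Vhl line and stood at 0.10 in the double knockout (adjusted p of the difference 9.62e-08).

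Against the Bmal1 knockout, 3311 genes differed (25.3%), with the higher value in the Vhl line for 1594 (12.2%) and the lower for 1717 (13.1%). Under the same rule Ak4 differed most (7.65, adjusted p = 1.43e-27), since it rose in the Vhl line and was at -1.25 in the Bmal1 knockout. Car9 (5.81), Egln3 (4.70) and Ndufa4l2 (4.25) followed the same order, and Stab2, a scavenger receptor of endothelium, rose by 1.38 ± 0.14 in the Vhl line and was at -3.45 in the Bmal1 knockout. Lower in the Vhl line were Mybph, a myosin binding protein (-1.70 against 1.29), Gpt, alanine aminotransferase (-1.01 against 1.17), Fam110b (-0.60 against 1.40) and Mdga1 (-2.16 against -0.25). The respiratory chain separated these lines as well, with 48 of 76 genes higher and none lower in the Bmal1 knockout, where 6.94% of all genes rose, and 66 of 76 genes lower in the Vhl line by the test of the difference. Sln stood at 4.05 and Tph1 at 2.03 in the Bmal1 knockout, both past the threshold there, and Dkk3 (-2.91 and -3.57) and Cdh4 (-2.49 and -2.67) did not differ by the test.

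**Figure D5:**
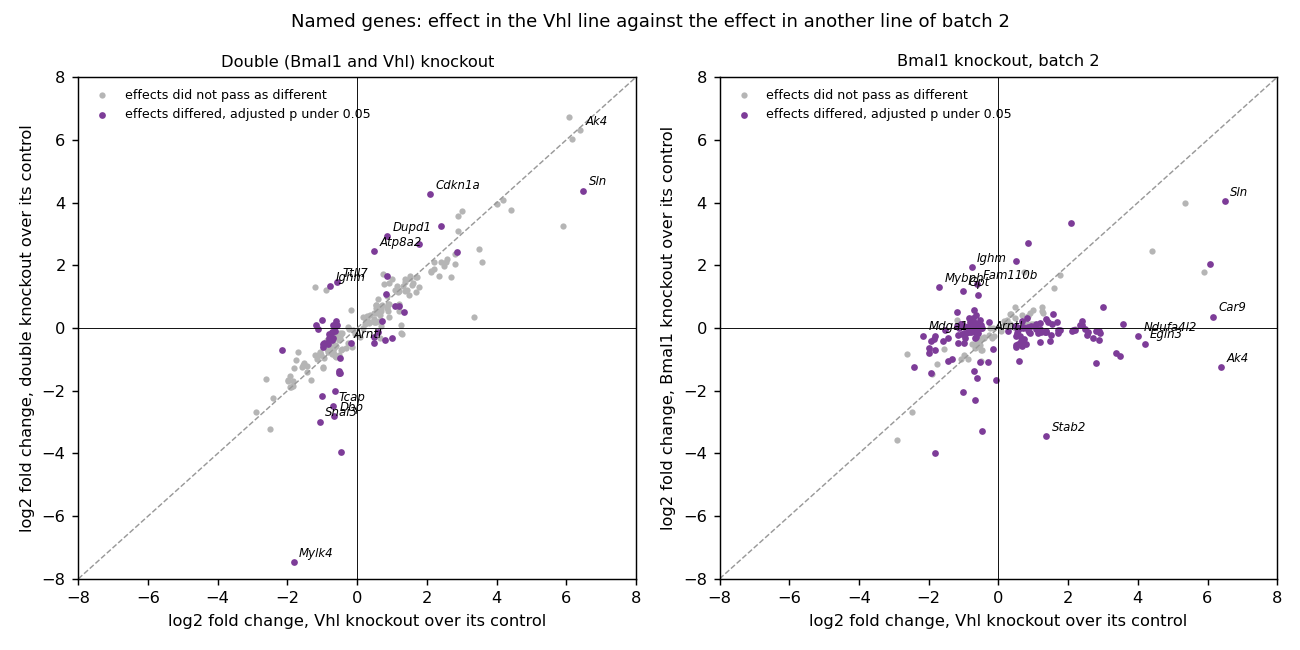
Log2 fold changes of 213 genes (those under the rule for named genes and those added to it) in the Vhl line (horizontal axes) against those in the double knockout (left) and in the Bmal1 knockout of batch 2 (right), each over its own floxed controls; the dashed line marks equal effects and purple points differed at an adjusted p under 0.05. The HIF targets Ak4, Car9, Egln3 and Ndufa4l2 lie near the dashed line on the left (Ak4 at 6.39 and 6.31). On the right these genes lie far below it (Ak4 at -1.25, Car9 at 0.36), and Mylk4 lies lowest on the left (-7.47).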

How the data were processed

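RNA of gastrocnemius was extracted with TRIzol and Direct-zol columns and made into Lexogen QuantSeq 3′ FWD libraries, per the labels' protocols. The submitters' processing notes name FastQC 0.11.4, STAR 2.6.0, HTSeq, edgeR 3.26.8, mm10 and GRCm38.p4, without roles. The sources used here do not say how reads shared between gene copies were counted, which bears on globins and glycolytic genes. The authors deposited raw counts per gene and a table of normalized counts (a signal scaled between libraries by the authors). The counts were analysed, and the normalized table served 1 alternative. Of 48321 rows, 27 carried symbols that had been turned into dates and were kept under those names.

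From the counts, CPM and tests were computed in R 4.3.3 with edgeR 4.0.16: filtering by filterByExpr (13093 genes kept), TMM scaling, and quasi-likelihood fits with robust dispersion over the 32 libraries of batch 2 in 6 groups, which share 1 estimate of spread. The Vhl effect is knockout minus control, and its differences from the double knockout and Bmal1 knockout effects were contrasts of the same fit. P-values were adjusted by Benjamini-Hochberg over all genes tested. Depth was 9046107 to 12118502 counts per library, and precision is poor for genes near 1 CPM. Animals are numbered in the labels as separate samples. All libraries compared belong to 1 batch, so no comparison spans batches. Per-library CPM are scaled by TMM.

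The genes named are Vhl and Arntl, the 15 genes with the largest rise and the 15 with the largest fall among those that passed and whose log2 CPM averaged 2 or more (5 each way in the contrasts between effects; predicted, Riken and mitochondrial genes left out), and of each of 41 gene lists up to 4 members with the smallest p, or 2 where none passed. The glycolysis lists, Hif1a and Arnt were added in full, and genes named beyond the rule were chosen after their values were seen. The members and lists were chosen with earlier results of these data known. Alternatives were DESeq2 1.42.0, limma 3.58.1 on log2(normalized count + 1), other scaling and filters, groups alone, a stricter threshold, a replicate block, the mean of the 3 control lines, and each library left out in turn. Leaving out knockouts 1 and 4 together, and no scaling without mitochondrial transcripts, were added after seeing the data. The fit was also run on simulated data in which few genes changed, which does not check the scaling where many genes change. Gene positions are from GENCODE M21 (GRCm38) and promoters from RefSeq GRCm38.p6, where 9522 of the 13093 tested genes matched by symbol; the windows were searched for ACGTG and GCGTG on both strands. A few genes under the rule are not reported here.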

Additional observations from a re-analysis of the deposited data

Results flagged for a closer look

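Of 172 groups of libraries checked (90 for single genes, 82 for summed gene lists), 24 had a highest or lowest library far from the rest; chance alone gives about 5% of groups. Knockout 2 was the highest of the 4 knockouts for Slc2a4 (125.1 CPM, others 106.7 to 109.8), Phka1 (169.8, others 109.6 to 114.8), Myh4 (23480, others 18910 to 19400), Iigp1 (216.9, others 24.2 to 37.4) and the summed lists of HIF targets of glucose uptake and glycolysis (13920, others 11400 to 11730) and interferon-induced genes (1189, others 594 to 683). Knockout 1 was the highest for Egln1 (513.2 CPM, others 461 to 463), Ak4 (184, others 169.3 to 171.5) and the summed keratinocyte markers (26.06, others 8.51 to 9.93). Knockout 4 was the highest for Chrna9 (12.55 CPM, others 5.00 to 6.07).

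Among the controls, control 6 had the highest sums of adipocyte (3988 CPM), endothelial (1138), macrophage (234.8), neutrophil (55.45) and denervation genes (262.3), and the lowest sums of branched-chain amino acid breakdown (816.7) and of mitochondrial genome messages (252300). Control 5 had the highest sums of fatty acid genes (4847 CPM), HIF targets of mitochondria (477.1), heat shock genes (6325), regulators of mitochondrial biogenesis (591.9), pericyte and smooth muscle markers (2725) and the respiratory chain (35480). Control 1 was the highest for Tph1 (1.656 CPM, others 0.737 to 0.949). In the fit across all genes without control 6, 2375 genes rose and 2540 fell.

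The effect of Vhl loss differed by test from that of the other lines, for 1121 genes against the double knockout and 3311 against the Bmal1 knockout. Against the double knockout the named differences (log2) were 5.65 for Mylk4, 2.15 for Dbp, 2.10 for Sln, 1.91 for Snai3, 1.79 for Tcap, -2.18 for Cdkn1a, -2.10 for Ighm, -2.06 for Dupd1, -2.05 for Ttll7 and -1.95 for Atp8a2. Against the Bmal1 knockout they were 7.65 for Ak4, 5.81 for Car9, 4.83 for Stab2, 4.70 for Egln3, 4.25 for Ndufa4l2, -2.99 for Mybph, -2.71 for Ighm, -2.18 for Gpt, -2.01 for Fam110b and -1.91 for Mdga1.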

How the results depend on the processing

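Of the 196 named genes that passed, 147 kept their direction and call under every alternative run, and 7 turned in direction under at least 1. Without scaling factors 5815 genes rose and 684 fell, and with mitochondrial transcripts also left out 4592 and 1122. At an adjusted p under 0.01 the Vhl effect differed from the double knockout effect for 545 genes and from the Bmal1 knockout effect for 2084. Leaving out 1 library gave 4052 to 4915 genes in the Vhl effect (1922 to 2375 higher, 2130 to 2548 lower), 763 to 1628 that differed from the double knockout effect (lowest without knockout 3, highest without knockout 2) and 2823 to 3463 that differed from the Bmal1 knockout effect. With knockouts 1 and 4 left out (added after seeing the data) 740 differed from the double knockout effect.

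With the replicate number as a block, 2011 genes rose and 2341 fell, and 696 differed from the double knockout effect. Deviations of same-numbered libraries correlated at -0.036 to 0.030, and 0 of 4 knockouts correlated best with their own number. The labels give no pairing by number, and a check on 4 knockouts could not exclude one. Under the block S100a8 turned to 1.36 (adjusted p = 0.0447) and S100a9 to 1.51 (adjusted p = 0.0267).

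Directions also turned, on the log2 scale, without scaling factors for Arntl (0.073), Bag3 (0.063), Eif2s3y (0.12), Gapdh (0.17), Glul (0.029), Hif1a (0.18), Pfkfb3 (0.30), Pfkfb4 (0.22) and Pfkm (0.19), and with mitochondrial transcripts also left out for Eif2s3y (0.007), Gapdh (0.05), Hif1a (0.082), Pfkfb3 (0.18), Pfkfb4 (0.11) and Pfkm (0.075). With knockouts 1 and 4 left out they turned for Myh7 (-0.995), Myl3 (-0.062), Pfkfb3 (0.21), Tnnc1 (-0.22), Tnni1 (-0.485) and Tpm3 (-0.105), and Krt1 went to 0. With 1 library left out Krt1 ranged from 0 (without knockout 1) to 6.351. Pfkfb3 turned to 0.042 against the mean of 3 control lines and ranged from -0.293 to 0.16 with 1 library left out (highest without knockout 4). S100a8 turned to 0.42 with limma, 0.15 against 3 control lines, and S100a9 to 0.24 and 0.37. With 1 library left out S100a8 ranged from -1.10 to 1.27 and S100a9 from -1.46 to 0.95, both highest without control 6. Beyond the effect of scaling and of the libraries left out, the cause was not tested.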
